A study of Mus musculus with 18 samples.

Results

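The genes described here are 10 named targets of the transcription factor p53: Cdkn1a, Mdm2, Ccng1, Btg2, Sesn1, Trp53inp1, Zmat3, Phlda3, Plk2 and Gdf15. They were taken by name, as every probe set whose annotation gives a member's symbol alone. This rule found 20 probe sets for 9 of the 10 genes among 45037 probe sets, and 17 of them, at least 1 for each of the 9 genes, were among the 27773 kept by a filter on low values. Gdf15 was not analysed here.

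NIH-3T3 cells are an established line of mouse embryo fibroblasts. They were pre-treated for 15 min with the translation inhibitor cycloheximide (CHX, 50 µg/ml) or with its solvent DMSO, and then received no interferon (mock), IFNα or IFNγ (100 U/ml each) for 1 h, which gave 6 treatments: mock, IFNα, IFNγ, CHX, IFNα+CHX and IFNγ+CHX. The labelled nucleoside 4-thiouridine (4sU, 500 µM) was present for the last 30 min in every treatment, mock included, and only the labelled, newly transcribed RNA was purified and hybridised, so a value reflects RNA made in those 30 min and not the standing pool. Each treatment had 3 arrays, which the study calls biological replicates. Array medians lay between 9.6 and 10.8 intensity units, and no further scaling was applied. All 8 fibroblast markers listed were kept, whereas 0 of 4 endothelial markers and 1 of 4 leukocyte markers (Cd68) were kept. Cd68 read 53.5 to 284 and was higher with CHX (log2 change 1.33 in the mean over interferon backgrounds), while the pan-leukocyte marker Ptprc read 4.8 to 5.2 on all arrays. The epithelial markers Epcam, Cdh1, Krt8 and Krt18 were kept with no intensity above 20 on any array.

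The p53 protein is a transcription factor that is held at a low level in unstressed cells, chiefly by the ubiquitin ligase Mdm2, which is itself the product of a p53 target gene. When p53 is stabilised after DNA damage or other stress it activates genes that halt the cell cycle, repair DNA, restrain growth signalling or lead to cell death. Many of these genes also carry sites for other factors and are transcribed in cells without overt stress. NIH-3T3 cells are known to lack Cdkn2a, the locus of the Mdm2 inhibitor Arf, and its probe set read 4.6 to 4.8 on all arrays, below the filter. Trp53, the gene of p53 itself, was not analysed here.

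Promoter windows are shown because the members split into genes that fell and genes that rose with CHX. RefSeq windows of build GRCm38.p6 were at hand for 7 of the 9 measured genes, 9 windows in all, and each holds the 250 bases before a transcription start. No window was at hand for Zmat3 and Trp53inp1, which also fell against mock, so neither was searched for matches. Those of 2 genes that fell, Cdkn1a (upstream start) and Phlda3, are set beside those of 2 whose probe sets rose, Btg2 and Plk2. Capitals mark matches, on either strand, to the 10-base p53 half-site or to the cAMP response element (CRE) TGACGTCA, and the windows read 5′ to 3′ in the direction of the gene. The Cdkn1a window is chr17:29090729-29090978 (+), that of Phlda3 is chr1:135765835-135766084 (+), that of Btg2 is chr1:134079156-134079405 (-) and that of Plk2 is chr13:110394794-110395043 (+).
Cdkn1a: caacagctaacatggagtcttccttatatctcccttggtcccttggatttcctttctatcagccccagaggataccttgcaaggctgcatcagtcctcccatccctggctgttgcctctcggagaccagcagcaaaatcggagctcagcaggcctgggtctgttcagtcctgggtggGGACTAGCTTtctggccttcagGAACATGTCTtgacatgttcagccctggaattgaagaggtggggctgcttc
Phlda3: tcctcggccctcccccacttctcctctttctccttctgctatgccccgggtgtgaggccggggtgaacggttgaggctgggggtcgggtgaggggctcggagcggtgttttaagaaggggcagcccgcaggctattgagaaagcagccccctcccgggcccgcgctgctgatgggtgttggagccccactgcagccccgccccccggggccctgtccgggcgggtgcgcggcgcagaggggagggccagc
Btg2: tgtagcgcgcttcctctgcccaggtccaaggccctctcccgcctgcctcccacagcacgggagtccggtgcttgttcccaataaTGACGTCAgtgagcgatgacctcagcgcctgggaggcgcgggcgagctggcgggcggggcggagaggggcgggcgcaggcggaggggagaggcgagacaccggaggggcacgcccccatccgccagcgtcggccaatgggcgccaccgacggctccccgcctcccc
Plk2: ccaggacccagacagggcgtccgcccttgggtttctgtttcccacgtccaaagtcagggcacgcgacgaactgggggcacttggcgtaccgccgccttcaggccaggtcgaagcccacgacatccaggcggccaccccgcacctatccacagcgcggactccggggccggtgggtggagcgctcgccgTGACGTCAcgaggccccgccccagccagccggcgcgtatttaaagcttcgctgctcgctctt

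The upstream Cdkn1a window held 2 p53 half-site matches, of which the one nearer the start, GAACATGTCT, begins 51 bases before it. Half-site matches also stood in the windows of Mdm2 and Ccng1 and in 1 of the 2 windows of Sesn1, but not in the window of the second Cdkn1a start or in those of Phlda3, Btg2 and Plk2. Of all 32851 promoter windows of this length, 7.13% held such a match, and 4 of these 9 windows did. The CRE was found in Btg2, beginning 166 bases before the start, and in Plk2, beginning 62 bases before it, and in no other of the 9, against 1.55% of all windows. Mdm2, whose window is not printed, also rose in the mean over interferon backgrounds and held a half-site match but no CRE. Phlda3, which fell, held neither. The GC box GGGCGG was in 7 of the 9 windows and in 32.7% of all windows. None of the 9 windows of measured members held a TATA box spelled TATAAA (12.4% of all windows), an E-box spelled CACGTG (6.02%), a CArG box (1.47%) or the interferon-linked GAS motif TTCNNNGAA (7.02%). These are matches of letters in 250 bases. No binding was measured, and many p53 sites lie outside such windows.

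Some members of the group fell with CHX and others rose. Against mock, 4 of the 9 measured genes fell and 0 rose at a Benjamini-Hochberg adjusted p under 0.01 in limma, the threshold used throughout and called passing below: Zmat3, Phlda3, Trp53inp1 and Cdkn1a. Of the 12121 genes tested, 14.5% passed in this comparison, with 9.92% lowered and 4.57% raised. The median log2 change of the 9 genes was -0.82, and that of all genes was -0.01. When the model also held a block for the replicate number (called the replicate block below), 5 members fell and 1 rose, since Sesn1 (adjusted p = 0.00479) and Plk2 (adjusted p = 0.00533) also passed, and 14.4% of all genes were then lowered and 6.62% raised. In such bulk RNA, fewer cells making a transcript and less of it per cell cannot be told apart.

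**Figure D1:**
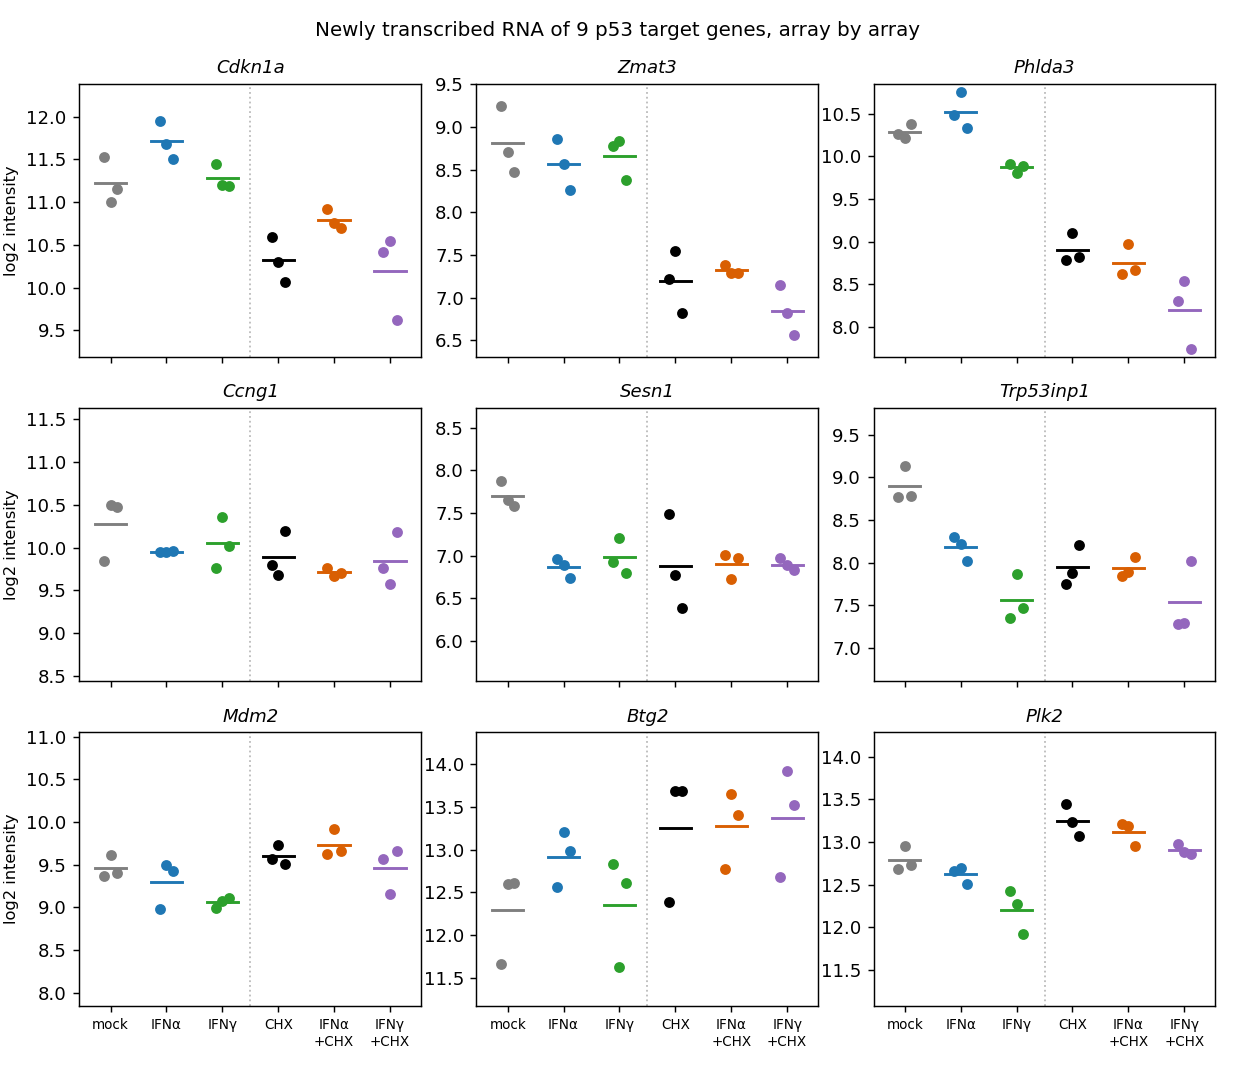
Log2 intensity of 9 p53 target genes on each of 18 arrays, for the probe set with the highest mean of each gene (points, 3 arrays per treatment, horizontal bars, means, and every panel spans the same 3.2 log2 units). Right of the dotted line, in the 9 arrays with CHX, all points of Cdkn1a, Zmat3 and Phlda3 lie below all points left of it, and the 3 mock points of Sesn1 and of Trp53inp1 lie above all their other points.

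The largest declines were in Phlda3 and Zmat3. Phlda3 encodes a small pleckstrin homology domain protein that competes with Akt for membrane lipids and so restrains Akt. Its intensity was 1229, 1189 and 1329 in mock, 1426, 1725 and 1288 with IFNα, and 966, 893 and 950 with IFNγ. With CHX it read 443, 549.8 and 451, with IFNα+CHX 394, 505 and 407, and with IFNγ+CHX 317, 373 and 215. No array with CHX reached the lowest array without it, in any interferon background. The log2 change was -1.38 ± 0.18 (SE, 3 against 3 arrays, adjusted p = 9.14e-05), 2.60-fold lower, for CHX against mock, -1.76 ± 0.18 (adjusted p = 8.61e-06) in IFNα-treated and -1.67 ± 0.18 (adjusted p = 1.39e-05) in IFNγ-treated cells.

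Zmat3 encodes a zinc finger protein that binds RNA and takes part in the control of splicing and mRNA stability. It read 606, 419 and 356 in mock, 463, 378 and 308 with IFNα and 437, 458 and 333 with IFNγ. Under CHX the values were 149, 188 and 113 without interferon, 167, 156 and 157 with IFNα and 142, 113 and 94.8 with IFNγ. The 9 arrays with CHX again lay wholly below the 9 without. Its log2 change was -1.61 ± 0.23 against mock (3.06-fold lower, adjusted p = 0.000228), -1.24 ± 0.23 with IFNα (adjusted p = 0.00157) and -1.82 ± 0.23 with IFNγ (adjusted p = 6.86e-05). Fitted on the 6 arrays of mock and CHX alone, the Zmat3 call was lost (adjusted p = 0.0171), whereas Phlda3 still passed.

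Cdkn1a encodes p21, the inhibitor of cyclin-dependent kinases through which p53 arrests the cell cycle, and is the textbook p53 target. Its brighter probe set, 1424638_at, read 2953, 2050 and 2268 in mock, 3969, 3288 and 2912 with IFNα and 2794, 2360 and 2336 with IFNγ. With CHX it read 1539, 1264 and 1070.5, with IFNα+CHX 1931, 1722 and 1663, and with IFNγ+CHX 1361, 1496 and 786. Intensity with CHX was lower on all 9 arrays than on any array without it, although the highest (1931, IFNα+CHX) came close to the lowest without CHX (2050, mock). The log2 change was -0.91 ± 0.22 against mock, 1.88-fold lower, and lay just under the threshold (adjusted p = 0.00994). It was -0.93 ± 0.22 with IFNα (adjusted p = 0.00823) and -1.09 ± 0.22 with IFNγ (adjusted p = 0.00251). The call against mock was lost in 15 of the 18 fits that each left out 1 array (adjusted p from 0.00166 to 0.0495 over the 18), with the filter on low values removed (0.0182) and with quantile normalization (0.0102). The call with IFNα was lost in 11 of the 18 fits, and that with IFNγ without replicate 1 of IFNγ (0.0137). These fits held no replicate block. With the block and all arrays, the adjusted p was 0.000917 against mock, 0.00074 with IFNα and 0.000206 with IFNγ. The dimmer probe set, 1421679_a_at, changed by -1.10 ± 0.45 against mock and did not pass (adjusted p = 0.113). Within IFNγ-treated cells it changed by -1.66 ± 0.45 (adjusted p = 0.0159), which passed only with the replicate block (adjusted p = 0.00271). Its arrays with CHX spread from 44.7 to 241 without interferon.

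The difference between CHX and no CHX was also averaged over the 3 interferon backgrounds, 9 against 9 arrays. In this mean CHX effect, 22.8% of all genes were lowered and 14% raised, and the 9 members divided into 3 lowered, 2 raised and 4 that did not pass. The lowered genes were Phlda3 (-1.60 ± 0.10, adjusted p = 2.18e-08), Zmat3 (-1.56 ± 0.13, adjusted p = 4.36e-07) and Cdkn1a (-0.97 ± 0.13, adjusted p = 2.60e-05). The raised genes were Plk2 (0.55 ± 0.08, adjusted p = 5.61e-05) and Mdm2 (0.33 ± 0.09, adjusted p = 0.0085). With the replicate block Trp53inp1 was also lowered (-0.41, adjusted p = 0.0085) and Btg2 also raised (0.78, adjusted p = 0.00715), where 27% of all genes were lowered and 16.7% raised. Over the 18 fits that left out 1 array each, the mean CHX effect of Phlda3 stayed between -1.66 and -1.53, that of Zmat3 between -1.62 and -1.48 and that of Cdkn1a between -1.03 and -0.88. In IFNα-treated cells CHX lowered 3 members and raised 0, where 15.3% of all genes passed, and in IFNγ-treated cells it lowered the same 3, Cdkn1a, Zmat3 and Phlda3, and raised Plk2, where 18.8% of all genes passed.

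**Figure D2:**
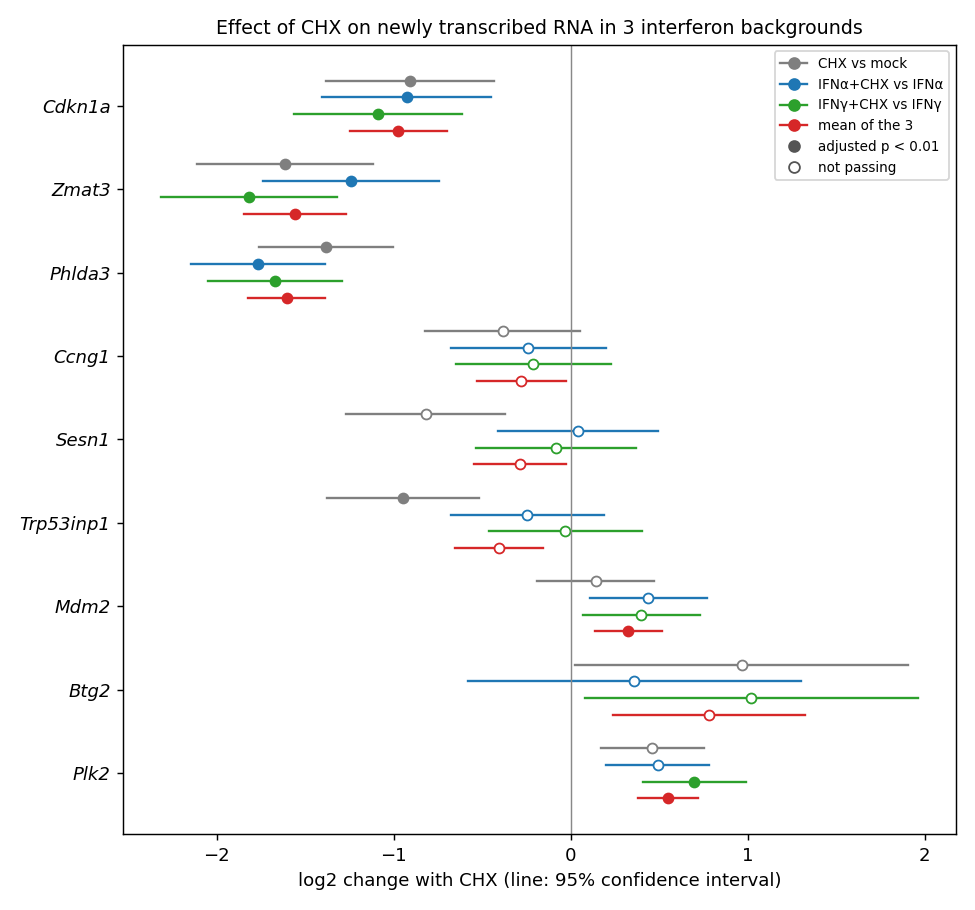
Log2 change with CHX of 9 p53 target genes in cells without interferon, with IFNα and with IFNγ, and the mean of these (points, estimates from limma, lines, 95% confidence intervals, filled points, adjusted p under 0.01). Cdkn1a, Zmat3 and Phlda3 have all 4 points filled and left of 0, while Mdm2, Btg2 and Plk2 lie right of 0.

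Plk2, an early-response kinase of the polo family that is also activated by p53, moved in the opposite direction. Probe set 1427005_at read 6560, 7939 and 6801 in mock, 6475, 6655 and 5818 with IFNα and 5516, 4950.3 and 3891 with IFNγ. With CHX it read 11120.3, 9650.2 and 8607, with IFNα+CHX 9446, 9324 and 7917, and with IFNγ+CHX 8066, 7545 and 7456. Within each interferon background the 3 arrays with CHX stood above the 3 without. The log2 change passed with IFNγ (0.70 ± 0.14, adjusted p = 0.00185) and did not against mock (0.46 ± 0.14, adjusted p = 0.0284) or with IFNα (0.49 ± 0.14, adjusted p = 0.0193). With the replicate block both of these changes passed (adjusted p = 0.00533 against mock and 0.00334 with IFNα, where 21% and 22% of all genes passed). The 95% confidence intervals of these 2 changes, 0.17 to 0.75 and 0.20 to 0.78, taken without the block, overlapped that with IFNγ, 0.41 to 0.99. The call with IFNγ was lost when the 6 arrays of that comparison were fitted alone (adjusted p = 0.0393).

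Btg2 encodes an antiproliferative protein that recruits the deadenylases which shorten mRNA tails. It has 2 probe sets of similar brightness, and both were higher with CHX. On 1448272_at the values were 5152, 5685 and 5216 in mock, 6555, 7262 and 6265 with IFNα and 7114, 6426 and 4579 with IFNγ, against 11488, 9452 and 7284 with CHX, 9057, 9083 and 7713 with IFNα+CHX and 13456, 12447 and 9810.2 with IFNγ+CHX. The lowest array with CHX (7284) lay just above the highest without it (7262). This probe set rose against mock (0.79 ± 0.18, adjusted p = 0.0070), with IFNγ (0.99 ± 0.18, adjusted p = 0.00123) and in the mean CHX effect (0.71 ± 0.11, adjusted p = 7.49e-05), but did not pass with IFNα (0.36 ± 0.18, adjusted p = 0.201). The probe set that stands for the gene by its higher mean, 1416250_at, gave a like mean change with a wider spread (0.78 ± 0.25, adjusted p = 0.0226), so Btg2 is not among the 2 raised genes counted above. On that probe set replicate 1 was the lowest array of every treatment except IFNγ (3237 against 6186 and 6268 in mock, 5354 against 13234 and 13168 with CHX), and without replicate 1 of CHX the mean change passed (0.93, adjusted p = 0.00592), as it did with the replicate block.

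Mdm2, the ubiquitin ligase that keeps p53 low, showed small differences. Its probe set 1423605_a_at read 662, 783 and 677 in mock, 504, 723 and 685 with IFNα and 508, 541 and 553 with IFNγ. The values were 760.1, 850.5 and 727 with CHX, 790.3, 969 and 811 with IFNα+CHX and 758, 571 and 807 with IFNγ+CHX. Arrays with and without CHX overlapped in cells without interferon, and did not overlap within either interferon. Between same-numbered arrays this probe set was higher with CHX in 9 of 9 pairs, by 0.08 to 0.65 log2 units. On 1427718_a_at 5 of the 9 pairs were higher with CHX and 4 lower. CHX against mock gave 0.14 ± 0.15 (95% confidence interval -0.19 to 0.47, adjusted p = 0.546), and the rise in the mean CHX effect, 1.25-fold, was lost with array medians set equal (0.27, adjusted p = 0.0235), with no filter on low values (adjusted p = 0.0120), and in 13 of the 18 fits that left out 1 array. The dimmer probe set 1427718_a_at gave 0.04 ± 0.31 (adjusted p = 0.916), and the remaining one, 1457929_at, read 4.9 to 5.3 on all arrays and was not kept. With the median over its probe sets, the mean CHX effect of Mdm2 was 0.18 (adjusted p = 0.411).

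Trp53inp1 and Sesn1 were highest in mock and lower in all 5 other treatments, an order that the geometric means of Zmat3 and of all 3 Ccng1 probe sets also had. Trp53inp1 encodes a nuclear stress protein that takes part in p53 phosphorylation, cell death and autophagy. It read 435, 561.8 and 439.9 in mock, 316, 298 and 259 with IFNα and 164, 235 and 177 with IFNγ. With CHX it read 215, 235 and 296, with IFNα+CHX 230.1, 238 and 268, and with IFNγ+CHX 156, 158 and 259.5. No array of any other treatment reached the lowest mock array. Against mock its log2 change was -0.95 ± 0.20 with CHX (adjusted p = 0.00404) and -1.33 ± 0.20 with IFNγ (2.51-fold lower, adjusted p = 0.000857), and it was -0.71 ± 0.20 with IFNα, which did not pass (adjusted p = 0.215). Within IFNγ-treated cells CHX made no detectable difference (-0.03 ± 0.20; 95% confidence interval -0.46 to 0.40). These comparisons share the 3 mock arrays. The CHX call was lost without replicate 2 of mock (adjusted p = 0.0229), replicate 1 of CHX (0.0192) or replicate 2 of CHX (0.0166), and the IFNγ call was lost when the 6 arrays of that comparison were fitted alone (0.0241). The second Trp53inp1 probe set, 1416927_at, read 5.7 to 6.3 throughout and was not kept.

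Sesn1, whose product sestrin restrains mTORC1 and belongs to the antioxidant defence, read 235, 202 and 191 in mock on 1433711_s_at. It read 124, 119 and 107 with IFNα, 122, 148 and 111 with IFNγ, 180.3, 109 and 83.6 with CHX, 129, 106 and 126 with IFNα+CHX and 125, 119 and 114 with IFNγ+CHX. The 5 treatments other than mock had geometric means between 116 and 126, against 208 in mock. With CHX the change was -0.82 ± 0.21 (adjusted p = 0.0132), with IFNα -0.84 ± 0.21 (adjusted p = 0.115) and with IFNγ -0.72 ± 0.21 (adjusted p = 0.0905), none of which passed. With the replicate block the change with CHX passed (adjusted p = 0.00479). Replicate 1 of CHX (180.3) stood apart from the other two, and without it the changes passed with CHX (-1.12, adjusted p = 0.00027), IFNα (-0.84, adjusted p = 0.00608) and IFNγ (-0.72, adjusted p = 0.00677). Probe set 1454699_at showed the same order with less spread, at 145, 149 and 135 in mock and 94.2 to 126 on the other 15 arrays, and fell with CHX against mock (-0.44 ± 0.09, adjusted p = 0.00465). With IFNα and IFNγ its changes were -0.49 (adjusted p = 0.01995) and -0.43 (adjusted p = 0.0172), which did not pass. Probe set 1438931_s_at did not differ between CHX and mock beyond its spread (0.03 ± 0.25, adjusted p = 0.952), and 1444376_at read 8.9 to 14.7, near background.

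Ccng1 encodes cyclin G1, which guides a phosphatase to Mdm2 and acts in the feedback on p53. On 1420827_a_at its geometric mean was 1236 in mock, 989 with IFNα and 1059 with IFNγ, and 947, 838 and 915 with CHX in the same backgrounds. Single arrays ran from 759 to 1447, and arrays with and without CHX overlapped in cells without interferon and with IFNγ. The mean CHX effect was -0.28 ± 0.12 and did not pass (adjusted p = 0.0729). Its 2 dimmer probe sets gave -0.81 ± 0.34 (1450017_at, adjusted p = 0.0660) and -0.82 ± 0.26 (1450016_at, adjusted p = 0.0191), with the same sign and no call. With the replicate block 1450016_at fell in the mean CHX effect (adjusted p = 5.04e-05) and in CHX against mock (-0.78, adjusted p = 0.00946). It also fell with CHX in IFNα-treated (-0.85, adjusted p = 0.00562) and IFNγ-treated cells (-0.84, adjusted p = 0.00515). The other Ccng1 probe sets did not pass with the block.

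**Figure D3:**
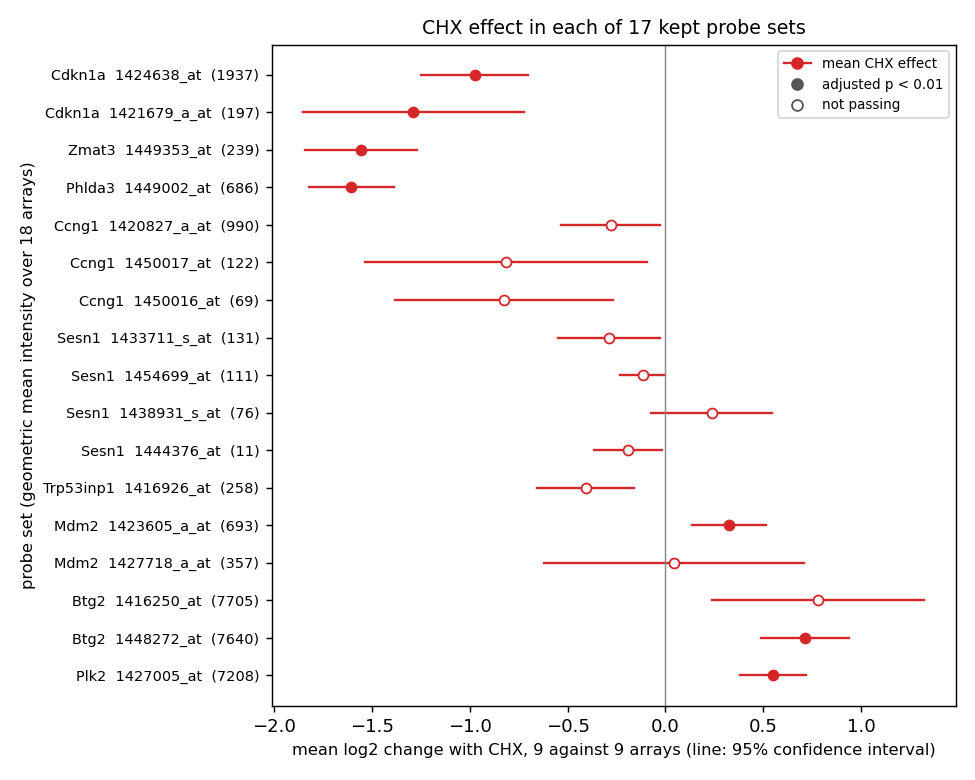
Mean log2 change with CHX over the 3 interferon backgrounds in each of the 17 kept probe sets of the 9 genes, 9 against 9 arrays (points, limma estimates, lines, 95% confidence intervals, filled, adjusted p under 0.01, in brackets, geometric mean intensity over 18 arrays). Both Cdkn1a probe sets are filled and left of 0, both Btg2 probe sets lie right of 0, and the 4 Sesn1 probe sets lie on both sides.

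A gene counts above through its brightest probe set. If any kept probe set of the gene passing is taken instead, a choice made after the values had been seen, 6 of the 9 genes passed in CHX against mock, with Sesn1 added among the lowered and Btg2 among the raised. Counted in the same way, 17.5% of all genes passed, 11.9% lowered and 5.63% raised. In the mean CHX effect 6 genes then passed, with Mdm2, Btg2 and Plk2 raised and Cdkn1a, Zmat3 and Phlda3 lowered, and so counted 26% of all genes were lowered and 16.4% raised.

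Fewer members passed with interferon than with CHX. IFNα against mock gave 0 passing members, where 0.743% of all genes passed. IFNγ against mock gave only Trp53inp1, described above, where 3.08% of all genes passed. Under CHX, IFNα gave 0 passing members (1.31% of all genes passed) and IFNγ gave 0 (5.77% of all genes passed). On the probe sets that stand for the genes, the limma changes nearest to the threshold were the 1.63-fold lower Phlda3 with IFNγ under CHX (-0.70 ± 0.18, adjusted p = 0.0239) and the 1.49-fold lower Plk2 with IFNγ against mock (-0.58 ± 0.14, adjusted p = 0.0279). Neither had overlapping groups. Without replicate 2 of IFNγ+CHX, the highest of its group, Phlda3 passed (-0.87, adjusted p = 0.00593). It also passed with the replicate block (-0.70, adjusted p = 0.00901), the only member to do so in that comparison, where 8.42% of all genes passed. Cdkn1a was 0.49 ± 0.22 higher with IFNα against mock (adjusted p = 0.826) and 0.47 ± 0.22 higher with IFNα+CHX against CHX (adjusted p = 1). The 3 arrays of IFNα+CHX stood above the 3 of CHX, and those of IFNα overlapped mock through 1 array each (2912 against 2953). Between same-numbered arrays, IFNα read higher than mock in each pair (3969 against 2953, 3288 against 2050 and 2912 against 2268). The dimmer Cdkn1a probe set changed by 0.82 ± 0.45 with IFNα, without overlap against mock and with overlap under CHX. Neither change passed.

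**Figure D4:**
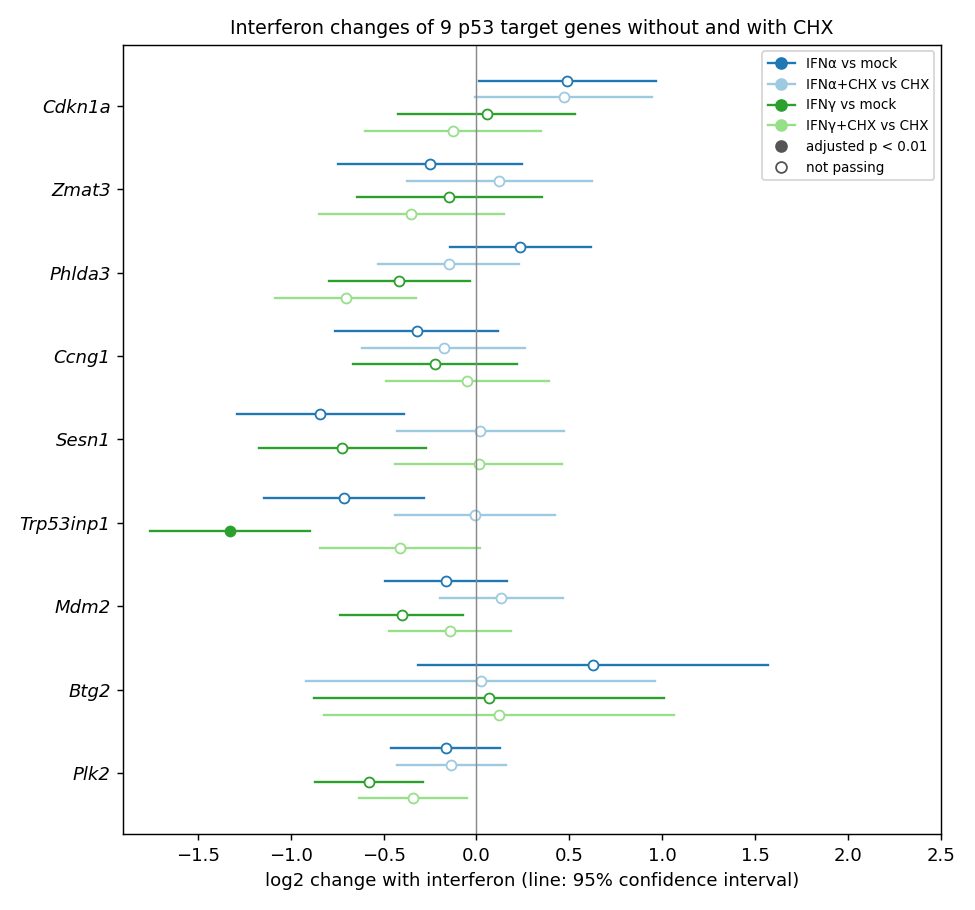
Log2 change of 9 p53 target genes with IFNα or IFNγ, without CHX (dark) and with CHX (pale) (points, limma estimates, lines, 95% confidence intervals, filled, adjusted p under 0.01). The single filled point is Trp53inp1 with IFNγ against mock, at -1.33, and all other intervals belong to changes that did not pass.

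Whether CHX altered an interferon response was tested as an interaction. None of the 9 genes passed in limma for IFNα (0.297% of all genes passed) or for IFNγ (0.363% of all genes passed). The largest of these 18 interactions was that of Trp53inp1 with IFNγ, 0.92 ± 0.28 (95% confidence interval 0.31 to 1.53, adjusted p = 0.296), and for Sesn1 the values were 0.86 ± 0.30 with IFNα (adjusted p = 0.739) and 0.73 ± 0.30 with IFNγ (adjusted p = 0.535). For Cdkn1a the intervals were -0.69 to 0.65 with IFNα and -0.85 to 0.49 with IFNγ.

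Across the 18 arrays, levels of the 3 lowered genes moved together: Pearson's r was 0.91 for Zmat3 and Phlda3, 0.88 for Cdkn1a and Phlda3 and 0.87 for Cdkn1a and Zmat3. Mdm2 and Plk2 had r = 0.74. These are descriptions over arrays that share 6 treatments, so the CHX contrast itself enters each value. Among all 12121 genes, those with a pattern over the arrays most like Cdkn1a were Erf (r = 0.97), Hrob (0.96), Atxn7l3 (0.96), Dact3 (0.96) and Rhog (0.95). Those most like Mdm2 were Eogt (r = 0.90), Nr1d2 (0.89), Acot9 (0.88), Cav2 (0.87) and Gpcpd1 (0.87).

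A wider list of 49 further p53 targets also held genes of both directions. Of the 43 that were kept, 4 rose and 6 fell in CHX against mock, and their median log2 change was -0.14. Of all genes, 4.57% were raised and 9.92% lowered in that comparison. The 4 that rose were Gadd45a, a stress protein of growth arrest and DNA repair (1.91 ± 0.30, adjusted p = 0.000409), Rap2b, a small GTPase (1.69 ± 0.36, adjusted p = 0.00392), the death receptor gene Fas (1.31 ± 0.13, adjusted p = 9.76e-06) and the antiproliferative Btg1, a relative of Btg2 (0.41 ± 0.09, adjusted p = 0.00621). The steepest declines were in Sesn2, the paralogue of Sesn1 (-2.48 ± 0.38, adjusted p = 0.000405), and Eda2r, a receptor of the TNF receptor family (-2.11 ± 0.21, adjusted p = 1.20e-05). The thiamine transporter gene Slc19a2 (-1.60 ± 0.19, adjusted p = 4.99e-05) and the nuclease gene Aen (-1.35 ± 0.21, adjusted p = 0.000416) followed. In the mean CHX effect 7 of the 43 rose and 15 fell, where 14% of all genes were raised and 22.8% lowered. With the replicate block 5 of the 43 rose and 10 fell against mock, where 6.62% of all genes were raised and 14.4% lowered. In the mean CHX effect 8 rose and 16 fell with it, where 16.7% of all genes were raised and 27% lowered. With IFNγ against mock 3 of the 43 rose and 0 fell, where 3.08% of all genes passed. These 3, named after their values were seen, were Fas (1.94), Dram1 (0.95) and Btg1 (0.69). With IFNγ+CHX against CHX 6 of the 43 rose and 1 fell, where 5.77% of all genes passed. The replicate block gave 6 raised and 3 lowered there, where 8.42% of all genes passed. With IFNα 0 passed against mock and 1 rose under CHX, where 0.743% and 1.31% of all genes passed. With the block these were 1 and 2 raised, where 1.03% and 1.57% passed. Fas is also known as a target of interferon and NF-κB signalling.

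Regulators of p53 were measured by 27 kept genes. Of these, the kinase gene Atm fell in CHX against mock (-1.19 ± 0.28, adjusted p = 0.00771) and no other passed, where 14.5% of all genes passed. With the replicate block 4 fell and 1 rose, where 14.4% of all genes were lowered and 6.62% raised. Mdm4, the Mdm2 relative that masks the activation domain of p53, read 373 to 661 over all arrays and changed by -0.01 ± 0.19 (adjusted p = 0.986). Ppm1d, the phosphatase that reverses p53 activation and is itself a p53 target, changed by -0.97 ± 0.30 against mock (adjusted p = 0.0348, and 0.00716 with the replicate block) and fell in the mean CHX effect (-0.85 ± 0.17, adjusted p = 0.00107). In the mean CHX effect 4 of the 27 regulators rose and 5 fell, where 14% of all genes were raised and 22.8% lowered. With the replicate block 5 rose and 7 fell in it, where 16.7% of all genes were raised and 27% lowered.

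Immediate-early genes, transcribed within minutes of a stimulus from factors already present, were set beside the members because Btg2 and Plk2 are often counted among them. Of 29 kept genes 7 rose and 2 fell in CHX against mock, with a median log2 change of 0.43, and 20 rose and 3 fell in the mean CHX effect. Of all genes, 4.57% were raised and 9.92% lowered against mock, and 14% raised and 22.8% lowered in the mean CHX effect. With the replicate block 13 rose and 3 fell against mock, where 6.62% of all genes were raised and 14.4% lowered. In the mean CHX effect 22 rose and 3 fell with it, where 16.7% of all genes were raised and 27% lowered. The largest rises were in the transcription factor genes Atf3 (2.54 ± 0.30, adjusted p = 5.01e-05), Maff (1.64 ± 0.36, adjusted p = 0.00528), Klf6 (1.13 ± 0.12, adjusted p = 1.84e-05) and Jun (1.01 ± 0.10, adjusted p = 1.17e-05). The nuclear receptor genes Nr4a2 (-1.05 ± 0.19, adjusted p = 0.00143) and Nr4a1 (-0.42 ± 0.08, adjusted p = 0.00255) fell. The median mean CHX effect was 0.50 over the 29 immediate-early genes, -0.14 over the 43 further targets, 0.03 over the 27 regulators and -0.29 over the 9 members, and it was 0.00 over all genes. These lists were not tested against each other.

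**Figure D5:**
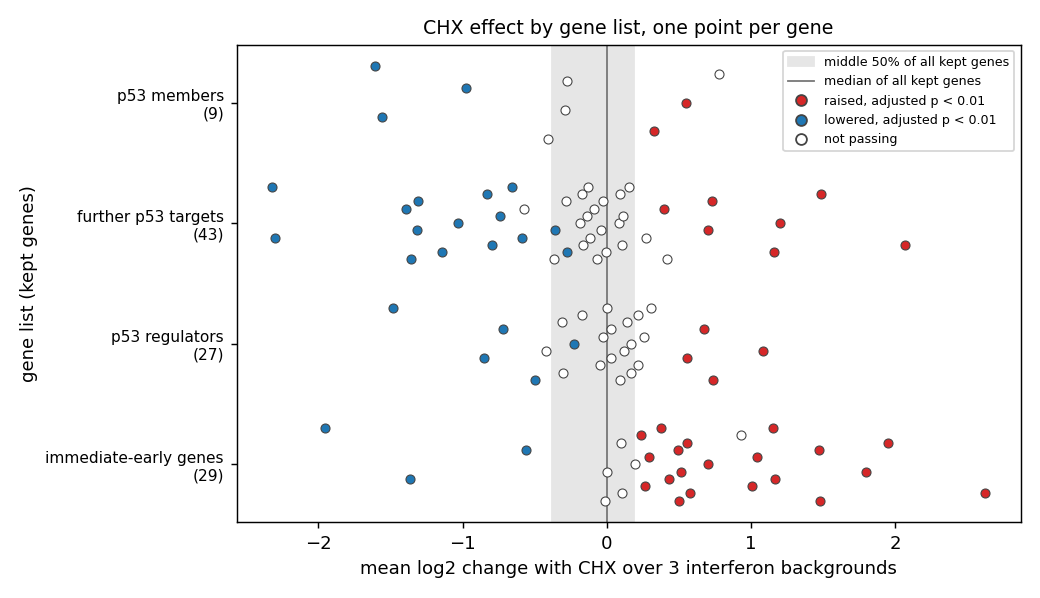
Mean log2 change with CHX over 3 interferon backgrounds of each kept gene of 4 lists (red, raised and blue, lowered at adjusted p under 0.01, open, not passing, vertical scatter has no meaning). The grey band holds the middle 50% of all kept genes, and points of the p53 members and further targets lie on both sides of it. Of the 29 immediate-early genes 20 are raised and 3 lowered, where 14% of all genes are raised and 22.8% lowered.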

How the data were processed

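Newly transcribed RNA of 18 samples was hybridised to Affymetrix mouse genome arrays. The authors normalised the arrays with gc-RMA in R and Bioconductor per their methods, while the labels name Affymetrix Expression Console, with no version given. The deposited table holds 1 linear intensity per probe set and array, already background-corrected and scaled between arrays by the authors. No raw array files were processed here.

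After 64 control probe sets were left out, 27773 of 45037 probe sets were kept by their highest value on any array (at least 8.5), as many as the study's presence filter kept apart from ties. Log2 intensity was fitted in limma 3.58.1 (R 4.3.3) with all 18 arrays in 1 model of 6 treatments (12 residual and 2.05 prior degrees of freedom), and p-values were adjusted by Benjamini-Hochberg over the kept probe sets of each of 10 comparisons. The fit was tested on simulated data. Of the 45037 probe sets 34945 have a single annotated symbol, and each of 12121 genes was represented by its kept probe set with the highest mean, to which the shares of all genes refer. Where values are given per treatment without replicate numbers, they follow replicates 1 to 3.

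The genes named were the 10 members, the p53 regulators Trp53, Mdm4, Cdkn2a and Ppm1d, up to 4 raised and 4 lowered passing genes of each wider list with the largest change in CHX against mock, and the 5 genes most like Cdkn1a and Mdm2 by Pearson's r. Outside this rule, markers of other cell types are named with the description of the samples, and Dram1 was named after its values were seen. Members and lists were chosen with earlier results of these data known. Alternatives covered an added constant, the filter, the scaling, the arrays fitted, a replicate block, the variance prior, the choice of probe set and leaving out each array. Promoter windows came from RefSeq (GRCm38.p6). Arrays have no sequencing depth, and 3 arrays per treatment limit the precision. P-values measure the spread between these arrays.

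The labels number the replicates alike in every treatment. Deviations from the treatment means correlated above 0.1 in all 3 same-numbered pairs for 6 of the 7 comparisons of 2 treatments (lowest r = 0.23), and not for IFNγ against mock (lowest r = -0.09). The number was taken to pair the arrays in those 6 comparisons and in the mean CHX effect. A value with the replicate block is given for a member call or list count that it changes there, but not for the count by any probe set.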

Additional observations from a re-analysis of the deposited data

How the results depend on the processing

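No member's change reversed among called values. Over 10 other settings, 850 of 891 member values kept their direction and side of the threshold, 11 without a call changed sign, 16 lost and 14 gained the call. Leaving out 1 array at a time (18 fits) kept both in 1517 of 1620 values, while 51 without a call changed sign, 43 lost and 9 gained the call. The number of the 9 genes passing then ranged from 2 to 4 for CHX against mock, 2 to 3 for CHX with IFNα, 3 to 4 for CHX with IFNγ, 4 to 6 for the mean CHX effect, 0 to 1 for IFNα against mock, 1 to 2 for IFNγ against mock and 0 to 1 for IFNγ under CHX, and was 0 for IFNα under CHX and for both interactions. The count of 2 against mock came without replicate 2 of mock or of CHX, and both left Zmat3 and Phlda3. Among all 27773 probe sets, 3038 passed in CHX against mock with all arrays, and 2033 and 2245 in those 2 fits. Over the 18 fits, 2033 to 3223 probe sets passed in CHX against mock, 2138 to 3540 with IFNα and 2724 to 4083 with IFNγ. The range was 7588 to 8464 for the mean CHX effect and 916 to 1351 for IFNγ under CHX. For IFNα against mock it was 127 to 166, and for IFNγ against mock 436 to 629. The extra Sesn1 calls came without replicate 1 of CHX.

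Fitted on the arrays of the comparison alone, CHX against mock gave 1 passing gene (Phlda3), CHX with IFNγ 2 (Zmat3 and Phlda3) and IFNγ against mock 0. This fit has fewer arrays, and the mean CHX effect, which uses all arrays, was not run under it. The share of all genes passing in this fit was not recorded. A loss of calls particular to the members therefore cannot be told from a general loss. Over all treatments, deviations from the treatment means correlated from -0.40 to 0.78 between same-numbered arrays (median 0.47; 38 of 45 pairs over 0.1) and from -0.74 to 0.53 between others (median -0.31), and 14 of 18 arrays correlated best, on average, with the arrays of their own number. With the replicate block, 6 genes passed in CHX against mock (Plk2 raised, Sesn1 lowered in addition), 4 in CHX with IFNα, 2 in IFNγ against mock (Trp53inp1 and Plk2, with 4.74% of all genes, in a comparison whose numbers did not pair), 1 in IFNγ under CHX (Phlda3) and 7 in the mean CHX effect, and it changed no other call of the probe sets that stand for the members. The probe sets passing among all 27773 rose with it from 3038 to 4706 in CHX against mock and from 8500 to 10590 in the mean CHX effect. Counting any passing probe set of a gene was chosen after seeing the data. The cause of these differences was not tested. Signal near background limits the probe sets under about 15.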
